A study of Mus musculus with 16 samples.

Results

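Krt6a, Krt6b, Krt16 and Krt17, the stress keratins, were followed in the mouse esophagus by taking the entries with those 4 gene names from the deposited table of 41411 genes. All 4 were listed in all 16 libraries and all 4 passed the filter on low values. The tissue came from C57BL/6 mice in an experimental form of eosinophilic esophagitis, in which allergy draws eosinophils into the lining of the esophagus. Each of 4 groups held 4 libraries: Il13ra1-/- mice given OXA (KO OXA), Il13ra1-/- mice given vehicle (KO vehicle), wild-type mice given OXA (WT OXA) and wild-type mice given vehicle (WT vehicle). OXA, the oxazolone allergen of the labels, is a small hapten that provokes contact allergy. Il13ra1 is the chain that, together with Il4ra, makes up the type II receptor through which IL-13 signals. The labels give Il13ra1-/- with no further description of the allele, and no age, sex, batch or dosing schedule.

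Keratins build the intermediate filaments of epithelial cells, and each filament pairs a type I with a type II chain. Krt6a and Krt6b are type II chains, while Krt16 and Krt17 are type I chains. In skin and in oral and esophageal linings they are known as the keratins of wounded, inflamed or hyperproliferating epithelium, where they are made beside or in place of the keratins of the resting tissue.

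Krt6a (ENSMUSG00000058354) lies on GRCm38 chromosome 15, 101689910 to 101694307, and its neighbour Krt6b (ENSMUSG00000023041) at 101676023 to 101680287. Krt16 (ENSMUSG00000053797) lies on chromosome 11, 100246091 to 100248902, next to Krt17 (ENSMUSG00000035557) at 100256217 to 100261029. All 4 are on the minus strand, with 9 exons in the transcripts of Krt6a and Krt6b and 8 in those of Krt16 and Krt17. Krt6a and Krt6b are near-copies: 1625 of 1662 aligned coding bases are identical (97.8%), against 397 of 503 aligned bases after the stop codon (78.9%). The last coding bases are shown as an example of how the near-copies differ just ahead of the stretch that 3′ tags read. Sequences are from GENCODE M21 transcripts (GRCm38, chromosome 15), 5′ to 3′ through the stop codon, with capitals at the 3 substituted bases and at the 3 bases that Krt6b has and Krt6a lacks.
Krt6a: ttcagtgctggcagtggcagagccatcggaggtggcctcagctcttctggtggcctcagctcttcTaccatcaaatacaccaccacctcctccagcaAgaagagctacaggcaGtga
Krt6b: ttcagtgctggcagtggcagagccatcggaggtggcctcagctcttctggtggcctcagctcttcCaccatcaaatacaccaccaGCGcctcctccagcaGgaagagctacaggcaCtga

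The libraries were made by CEL-Seq, which reads tags near the 3′ ends of transcripts. In the last 600 bases of the Krt6a and Krt6b transcripts, none of 551 windows of 50 bases occurred in a transcript of another gene, so tags from that stretch can tell the pair apart. Over whole transcripts, 49.5% of Krt6a windows and 50.1% of Krt6b windows were shared, mostly between the pair. In the last 300 bases of Krt16 and of Krt17, 0 of 251 windows were shared. Over the last 600 bases 31.9% of Krt16 windows were shared with Gm11597, Krt14 or Krt17, and 7.80% of Krt17 windows with Krt14 or Krt16. The read length, the strand setting and the treatment of reads with several matches are not given in the sources used here, so the split between near-copies is uncertain where tags lie farther upstream. An antisense gene inside Krt6a, Gm49428, held 0 reads in each KO library, 28 to 48 in each WT OXA library and 0 to 2 in each WT vehicle library. Reads of the gene and of its antisense partner cannot be told apart without a stated strand.

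Depth was 11.6 ± 2.71 M reads in KO OXA, 12.9 ± 3.64 M in KO vehicle, 23.3 ± 3.63 M in WT OXA and 7.64 ± 1.70 M in WT vehicle (SD, n = 4 each; M, mega). Il13ra1 itself was read at 44.0 to 174 in KO OXA and 31.2 to 64.7 in KO vehicle, against 584 to 874 in WT OXA and 134 to 226 in WT vehicle. If the tags fall beyond the deletion, these reads check nothing about it. Of the esophageal epithelium markers Krt5, Krt14, Krt15, Krt4, Krt13, Krt78, Trp63, Cdh1, Dsg3, Dsc3, Epcam, Perp and Mal, all 13 passed the filter, while Sox2 was listed at 0 in every library. Whether a gene listed at 0, here or below, had no RNA or had reads that went uncounted was not tested. Beyond codes in the titles, nothing states whether the libraries of a group came from separate animals, so p-values measure only the spread between these samples, which may be technical. All values below are normalized read counts, that is, reads divided by 1 size factor per library.

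Under OXA the WT esophagus held far more RNA of all 4 stress keratins than under vehicle, and the KO esophagus much less of each than the WT esophagus under the same treatment. The ratio of group means, OXA over vehicle, was 5.30 in KO and 86.0 in WT for Krt6a, 16.8 and 63.8 for Krt6b, 9.38 and 174 for Krt16, and 2.81 and 40.0 for Krt17. Mean KO OXA values stood at 8.19% of the WT OXA mean for Krt6a, 14.2% for Krt6b, 4.38% for Krt16 and 6.91% for Krt17. In bulk tissue, fewer cells of a type and less RNA per cell cannot be told apart.

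Krt6a, a type II chain, was at 10398, 11746, 2768 and 3723 in KO OXA (replicates 1 to 4) and at 2428, 920, 1045 and 1006 in KO vehicle. It was at 72498, 87066, 74305 and 115909 in WT OXA and at 1356, 436, 553 and 1720 in WT vehicle. No KO OXA library overlapped KO vehicle, but KO OXA replicate 3 lay close to KO vehicle replicate 1, and every KO OXA library stayed below every WT OXA library. The means were 7159 ± 4569 in KO OXA, 1350 ± 721 in KO vehicle, 87445 ± 20053 in WT OXA and 1016 ± 623 in WT vehicle (SD, n = 4 each). Both vehicle groups overlapped.

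Krt6b, the second type II chain, was at 16368, 28244, 1972 and 2171 in KO OXA and at 1084, 533, 494 and 794 in KO vehicle. It was at 62713, 85873, 60470 and 133573 in WT OXA and at 1627, 1040, 960 and 1745 in WT vehicle. KO OXA split widely: replicates 1 and 2 lay far above replicates 3 and 4, though even the lowest lay above all of KO vehicle. The means were 12189 ± 12649 in KO OXA, 726 ± 273 in KO vehicle, 85657 ± 33945 in WT OXA and 1343 ± 401 in WT vehicle (SD, n = 4 each). Of the 4 KO vehicle libraries, 3 lay below every WT vehicle library.

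Krt16, the type I chain that commonly pairs with Krt6 chains, was at 677, 1217, 100.26 and 318 in KO OXA and at 125, 42.3, 43.4 and 36.1 in KO vehicle. It was at 16555, 10327, 5998 and 19839 in WT OXA and at 103, 12.4, 12.8 and 174 in WT vehicle. In KO, replicate 3 under OXA fell below replicate 1 under vehicle, so these groups overlapped, while the lowest WT OXA library was well above every library of the other 3 groups. The means were 578 ± 488 in KO OXA, 61.6 ± 42.2 in KO vehicle, 13180 ± 6203 in WT OXA and 75.6 ± 78.2 in WT vehicle (SD, n = 4 each). The lowest WT vehicle values rested on 7 and 8 reads.

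Krt17, a type I chain also made in hair follicles and in other skin appendages, was at 101, 124, 21.0 and 58.3 in KO OXA and at 40.9, 29.3, 19.8 and 18.1 in KO vehicle. It was at 1480, 795, 588 and 1534 in WT OXA and at 35.8, 26.3, 25.5 and 22.3 in WT vehicle. Again KO OXA replicate 3 lay within KO vehicle and the other 3 above it, and WT OXA stood apart from all other groups. The means were 76.0 ± 45.6 in KO OXA, 27.0 ± 10.5 in KO vehicle, 1099 ± 479 in WT OXA and 27.5 ± 5.81 in WT vehicle (SD, n = 4 each). Each WT vehicle value rested on 10 to 26 reads.

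**Figure D1:**
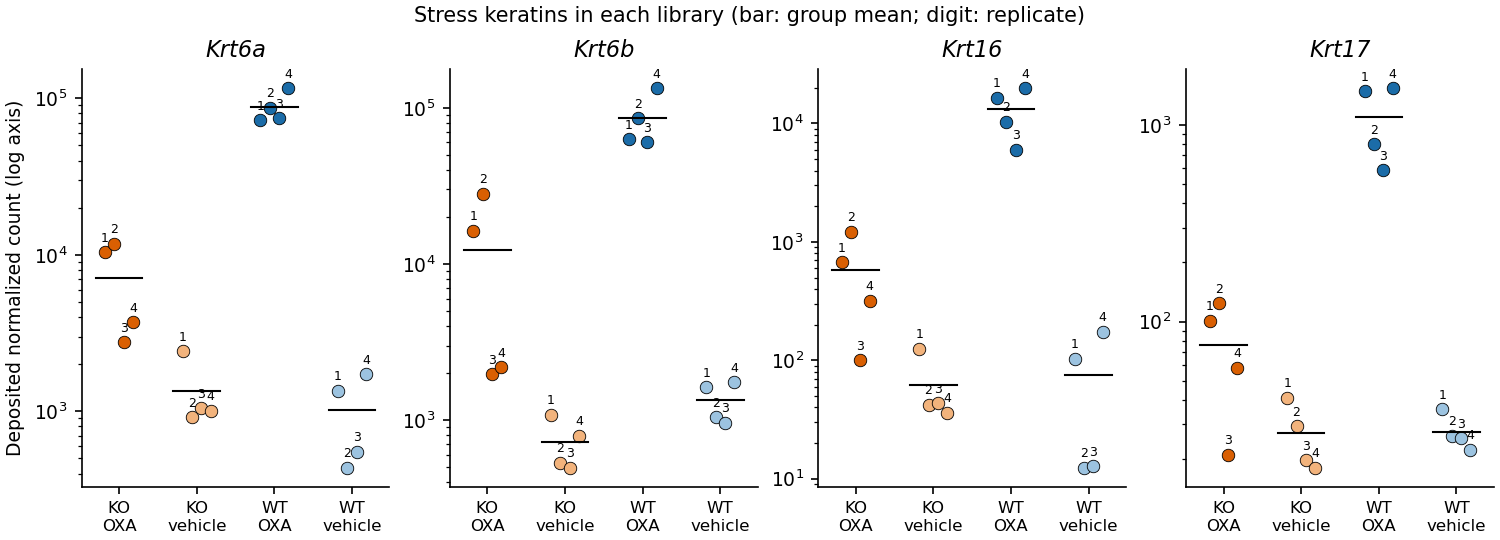
Normalized read counts (log axis) of Krt6a, Krt6b, Krt16 and Krt17 in each library of KO OXA, KO vehicle, WT OXA and WT vehicle, with digits for replicates and bars for group means. WT OXA stands above every other library for all 4 genes, and the KO OXA libraries are spread out, with replicate 3 lowest.

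The 4 genes kept the same order of libraries within KO OXA: replicate 2 was highest, then 1, then 4, then 3. In WT OXA replicate 4 was highest for all 4 genes, and in KO vehicle replicate 1 was. In WT vehicle replicate 4 was highest for Krt6a, Krt6b and Krt16, and replicate 1 for Krt17. Il13ra1 reads in KO OXA followed another order, at 44.0, 174, 68.1 and 110.3 in replicates 1 to 4.

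The first comparison asked how the OXA model changed the WT esophagus. All 4 stress keratins rose, beside 18% of all 16748 tested genes called higher and 16% called lower in this comparison. The log2 fold change, on the log2(value + 1) scale, was 6.63 ± 0.46 (SE) for Krt6a (adjusted p = 2.25e-09), 5.97 ± 0.61 for Krt6b (adjusted p = 5.2e-07), 8.12 ± 0.76 for Krt16 (adjusted p = 1.8e-07) and 5.18 ± 0.44 for Krt17 (adjusted p = 4.49e-08). Counted from the highest fold change, they stood at places 2 (Krt16), 11 (Krt6a), 16 (Krt6b) and 24 (Krt17) of 16748. Their median was 6.30, beside 0.0994 over all tested genes. WT OXA was also the deepest group, and with every library thinned to 5.61 M reads the log2 fold changes were 6.61, 5.97, 8.22 and 5.23 in the same gene order.

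The same treatment was then compared in KO, where Krt6a and Krt6b rose and the 2 type I chains did not pass. At an unadjusted p under 0.05 limma found all 4 higher, so the calls are no sign that the filament types differed. Of all tested genes, 1.81% were called higher and 0.0896% lower here. The log2 fold change was 2.27 ± 0.46 (SE) for Krt6a (adjusted p = 0.00864) and 3.27 ± 0.61 for Krt6b (adjusted p = 0.00392). For Krt16 it was 2.88 ± 0.76 (adjusted p = 0.0579) and for Krt17 1.26 ± 0.44 (adjusted p = 0.182). The members' median was 2.57, beside -0.0149 over all tested genes. The Krt6b effect was 2.58 without KO OXA replicate 2 and 3.86 without replicate 3, and it passed in both cases. The other calls depended on single libraries: without KO OXA replicate 2, Krt6a lost its call (adjusted p = 0.0505), and without KO OXA replicate 3 all 4 genes passed (adjusted p = 0.0112 for Krt16 and 0.0102 for Krt17). With edgeR Krt16 passed as well (adjusted p = 0.0161), and with DESeq2 so did Krt16 (0.00322) and Krt17 (0.0169).

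Whether the OXA effect differed between genotypes was tested by the interaction, the KO effect minus the WT effect. It was negative for all 4 genes, beside 7.67% of all tested genes called in that direction and 10.1% in the other. The difference was -4.36 ± 0.64 (SE) for Krt6a (adjusted p = 0.000138), -2.70 ± 0.86 for Krt6b (adjusted p = 0.0353), -5.24 ± 1.08 for Krt16 (adjusted p = 0.00247) and -3.92 ± 0.62 for Krt17 (adjusted p = 0.000273). The call for Krt6b depended most on the settings. It was lost with edgeR (-1.94, adjusted p = 0.113), with DESeq2 (-1.93, adjusted p = 0.0906), without the filter (adjusted p = 0.0802) and without the trend (adjusted p = 0.0855). It was also lost when any 1 of 8 libraries was left out, namely WT OXA replicates 2 and 4, WT vehicle replicates 2 and 3, KO OXA replicates 3 and 4, and replicates 1 and 4 of KO vehicle (the adjusted p then lay between 0.0545 and 0.0766).

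Under OXA, limma called all 4 genes lower in KO than in WT, beside 12.9% of all tested genes called lower and 14.6% called higher. The libraries of KO OXA and WT OXA did not overlap for any of the 4 genes. The share of all tested genes without overlap was not counted, so a lack of overlap, here and for the single genes above, is description only. The log2 difference, KO minus WT, was -3.85 ± 0.46 (SE) for Krt6a (adjusted p = 3.78e-06), -3.61 ± 0.61 for Krt6b (adjusted p = 0.00018), -4.89 ± 0.76 for Krt16 (adjusted p = 8.37e-05) and -3.99 ± 0.44 for Krt17 (adjusted p = 1.48e-06). Under vehicle, limma called 0 of the 4 genes between KO and WT, and so did edgeR and DESeq2. At an unadjusted p under 0.05 limma also found 0 of 4, and over all tested genes 0.0358% were called higher and 0.0239% lower. The log2 differences were 0.52 ± 0.46 for Krt6a, -0.91 ± 0.61 for Krt6b, 0.35 ± 0.76 for Krt16 and -0.08 ± 0.44 for Krt17 (SE). These comparisons share libraries with the OXA effects above, and their values stand side by side and not as separate evidence.

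**Figure D2:**
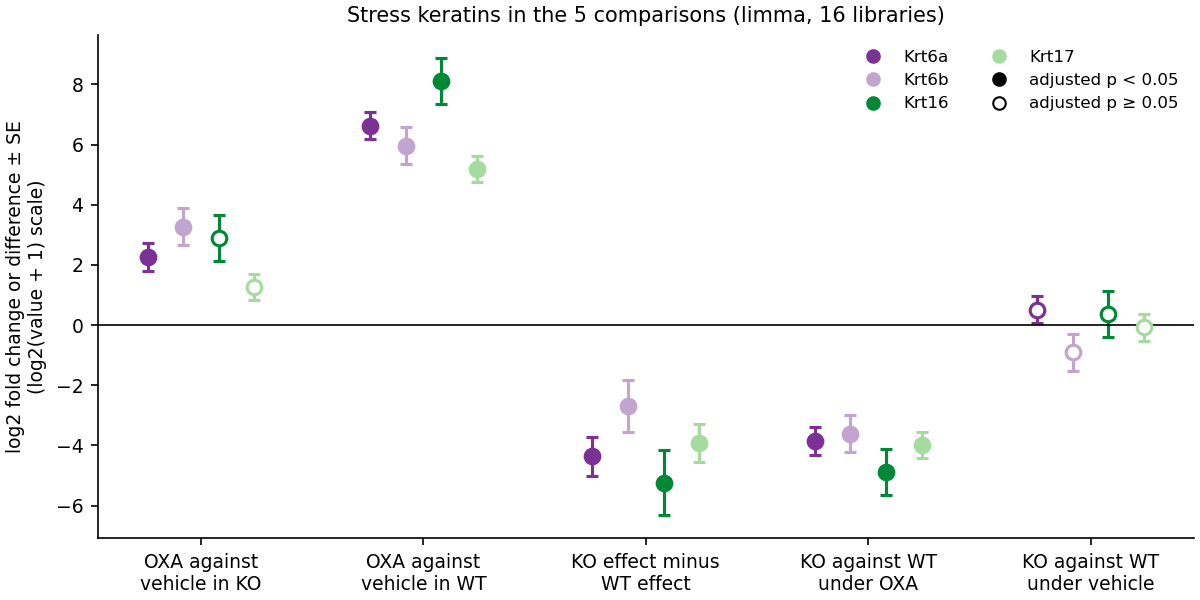
Log2 fold changes (log2(value + 1) scale) with standard errors of the 4 stress keratins in the 5 comparisons. The OXA effect lies between 1.26 and 3.27 in KO and between 5.18 and 8.12 in WT, the interaction and KO against WT under OXA lie below 0, and KO against WT under vehicle lies within 0.91 of 0.

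As a share of all keratin reads (53 keratin entries, 27 of type I, 25 of type II and 1 other), the stress keratins were a trace in vehicle tissue and a large part of the reads in WT OXA. The share was 1.22% ± 1.36 in KO OXA, 0.1405% ± 0.0664 in KO vehicle, 24.8% ± 2.20 in WT OXA and 0.159% ± 0.0928 in WT vehicle (SD, n = 4 each). Single libraries ran from 0.258% (95% Wilson interval 0.250 to 0.266) to 3.21% (3.18 to 3.25) in KO OXA and from 22.4% to 27.3% in WT OXA, so the counting error was far below the spread between libraries. Without KO OXA replicate 2 the difference between KO OXA and KO vehicle was 0.418 percentage points, against 1.08 with it. In two-sided exact permutation tests over 70 assignments, whose smallest possible p is 0.0286, the share differed between KO OXA and KO vehicle, between WT OXA and WT vehicle, and between KO OXA and WT OXA (p = 0.0286 and adjusted p = 0.0381 in each, over 4 pairs of groups). Between KO vehicle and WT vehicle the exact permutation p was 0.686.

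All keratins together took 13.2% ± 2.81 of reads in KO OXA, 12.3% ± 0.918 in KO vehicle, 7.21% ± 1.42 in WT OXA and 12.7% ± 1.95 in WT vehicle (SD, n = 4 each). The difference between WT OXA and WT vehicle was at the smallest exact permutation p of 0.0286 but did not pass after adjustment (0.0571). Of all reads, the 4 stress keratins alone took 0.147% ± 0.137 in KO OXA, 0.0172% ± 0.0082 in KO vehicle, 1.80% ± 0.477 in WT OXA and 0.0192% ± 0.0087 in WT vehicle.

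Split by filament type, Krt6a and Krt6b took 1.46% ± 1.61 of type II reads in KO OXA, 0.167% ± 0.0733 in KO vehicle, 30.3% ± 1.57 in WT OXA and 0.197% ± 0.117 in WT vehicle. Krt16 and Krt17 took 0.211% ± 0.239 of type I reads in KO OXA, 0.0304% ± 0.0217 in KO vehicle, 7.89% ± 3.58 in WT OXA and 0.0295% ± 0.0245 in WT vehicle (SD, n = 4 each). The type II share passed in the 3 pairs of groups other than the vehicle pair (exact permutation p = 0.0286, adjusted p = 0.0381 in each). The type I share was also at the smallest possible exact permutation p of 0.0286 for WT OXA against WT vehicle and for KO OXA against WT OXA, with an adjusted p of 0.0571 in each. For KO OXA against KO vehicle its exact permutation p was 0.0571 (adjusted p = 0.0762). With 2 rather than 3 of 4 pairs at the smallest p, adjustment could not bring the type I share past the threshold, so the difference in calls between the types is no sign that they differed.

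**Figure D3:**
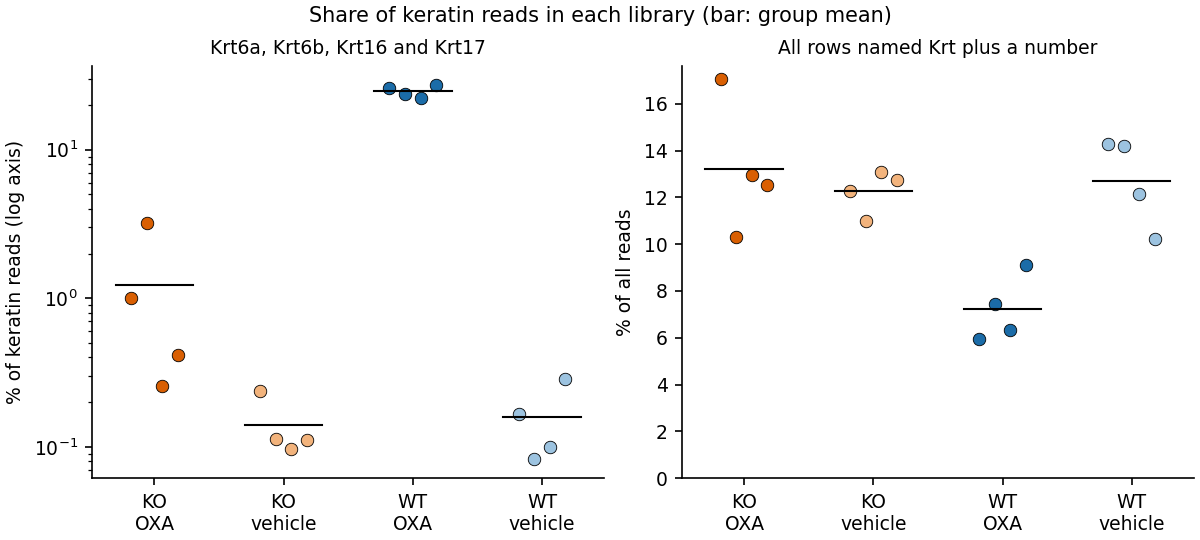
Shares of reads in each library of KO OXA, KO vehicle, WT OXA and WT vehicle, with group means as bars. The panels show the stress keratins as a percent of keratin reads (log axis) and all keratins as a percent of all reads. In WT OXA 22.4% to 27.3% of keratin reads were stress keratins, and in KO OXA 0.258% to 3.21%.

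The stress keratins were also set against Krt5, Krt14 and Krt15, keratins of the basal layer. The log2 ratio of the summed stress keratins to these 3 was -1.79 ± 1.62 in KO OXA, -4.28 ± 0.593 in KO vehicle, 2.44 ± 0.250 in WT OXA and -4.28 ± 0.562 in WT vehicle (SD, n = 4 each). The difference was 2.49 for KO OXA against KO vehicle, 6.72 for WT OXA against WT vehicle and -4.23 for KO OXA against WT OXA (exact permutation, adjusted p = 0.0381 in each). This ratio was chosen after the data were seen.

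The ratio of 2 stress keratins within a library shows whether they moved by the same factor; being a ratio of 3′ tag values, it is read for how it differs between groups and not as relative abundance. Between WT OXA and WT vehicle all 6 pairs were compared. The log2 ratio of Krt16 to Krt17 was higher in WT OXA by 2.95 (exact permutation p = 0.0286, adjusted p = 0.0686 over the 6 pairs), and no pair passed after adjustment. As that p is the smallest possible, a pair could pass only if other pairs reached it too. The Krt16 to Krt17 ratio ran from 4.77 to 9.83 in KO OXA, 1.44 to 3.05 in KO vehicle, 10.2 to 13.0 in WT OXA and 0.470 to 7.80 in WT vehicle. It thus did not overlap between KO OXA and KO vehicle, nor between KO OXA and WT OXA (exact permutation p = 0.0286 and adjusted p = 0.137 over 24 pair tests in each).

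The ratio of Krt6a to Krt6b was 2.24, 1.72, 2.12 and 1.27 in KO vehicle, against 0.833, 0.419, 0.576 and 0.986 in WT vehicle. These groups did not overlap, but the log2 difference, KO minus WT, of 1.43 did not pass after adjustment (exact permutation p = 0.0286, adjusted p = 0.137 over 24 pair tests, most of them added after the data were seen). That p is the smallest possible, and over 24 tests a pair could pass only if many others reached it too. The missed call therefore says nothing about the ratio. Under OXA the ratio was 0.635, 0.416, 1.40 and 1.71 in KO and 1.16, 1.01, 1.23 and 0.868 in WT. In KO OXA the ratio lay below 1 in replicates 1 and 2, the libraries with the most stress keratin RNA, and above 1 in replicates 3 and 4.

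**Figure D4:**
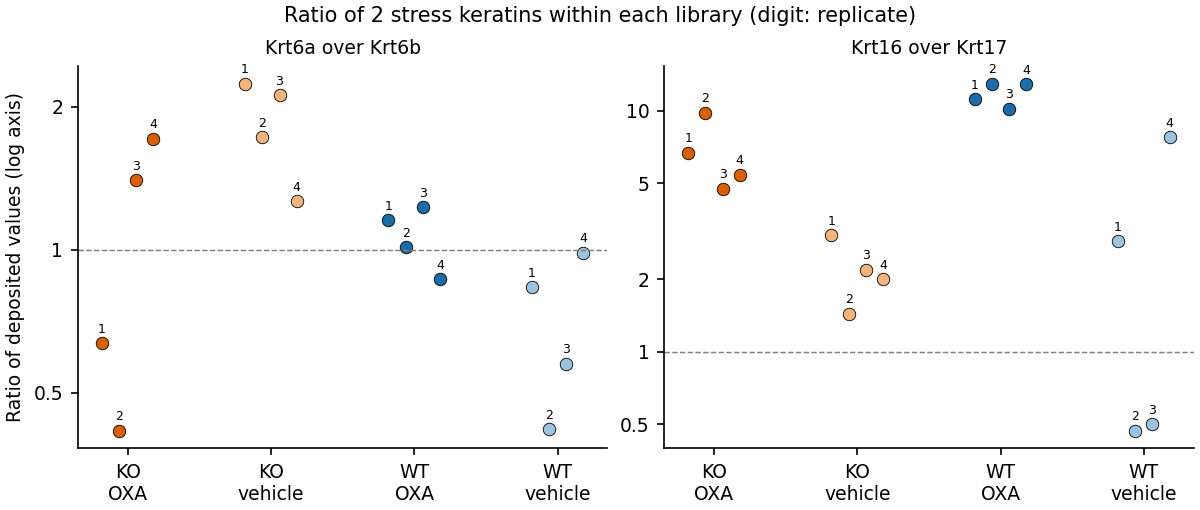
Ratio of Krt6a to Krt6b and of Krt16 to Krt17 within each library (log axis), by group and with digits for replicates. The Krt6a to Krt6b ratio is 1.27 to 2.24 in KO vehicle and 0.419 to 0.986 in WT vehicle, and the Krt16 to Krt17 ratio is 10.2 to 13.0 in WT OXA.

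The rest of the keratin family was counted in the same way. Of 49 other keratin entries, 23 passed the filter. In KO 2 of them rose and 0 fell (beside 1.81% higher and 0.0896% lower over all tested genes), and in WT 4 rose and 10 fell (beside 18% and 16%, so that the higher count was near the background). The 2 that rose in KO, Krt75 and Krt90, passed the filter largely through OXA libraries, so that count is description only. In KO edgeR and DESeq2 also called 0 lower, as did limma under both other scalings. The median log2 fold change of these 23 was 0.25 in KO and -0.91 in WT. Under OXA, 10 of the 23 were higher and 3 lower in KO than in WT, while all 4 stress keratins were lower. Over all tested genes 14.6% were called higher and 12.9% lower in this comparison, so the lower count was near the background.

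The other keratins that rose in WT were Krt14, Krt75, Krt84 and Krt90. Krt75, Krt84 and Krt90 averaged 5.02 or less in both vehicle groups, so they passed the filter of 5 largely through OXA libraries. That filter favoured a rise under OXA, and the calls of these low genes are description only. Krt14, the type I chain of the basal layer, rose by 2.04 ± 0.20 (SE) in WT (adjusted p = 4.22e-07) and stood at 0.62 ± 0.20 in KO (adjusted p = 0.148). Krt75, a type II chain known from the hair follicle companion layer, was at 11.0, 3.57, 9.90 and 17.3 in KO OXA, at 3.28 in 1 KO vehicle library and 0 in the other 3, at 34.8, 99.0, 27.5 and 38.3 in WT OXA, and at 1.38, 1.55, 0 and 0 in WT vehicle. It rose in both genotypes (adjusted p = 0.033 in KO and 2.51e-05 in WT), and its interaction did not pass (adjusted p = 0.161). Krt90 rose in both genotypes as well, to 7.90 ± 4.37 in KO OXA, against 0 reads in KO vehicle, and to 27.1 ± 7.73 in WT OXA, against 3.29 ± 2.98 in WT vehicle (SD, n = 4 each). Krt84 averaged 34.5 ± 26.8 in KO OXA, 3.98 ± 4.12 in KO vehicle, 32.2 ± 9.05 in WT OXA and 5.02 ± 10.03 in WT vehicle (SD, n = 4 each). It stood at 2.61 ± 1.06 in KO (adjusted p = 0.259), rose by 3.91 ± 1.06 in WT (adjusted p = 0.0075), and stood at -0.61 ± 1.06 for KO against WT under OXA (adjusted p = 0.716).

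Of the other keratins, 10 fell in WT. Among them, Krt32 changed by -3.67 ± 0.23 (adjusted p = 4.7e-10), Krt79 by -3.11 ± 0.44 (adjusted p = 2.36e-05), Krt78, a suprabasal type II chain, by -2.53 ± 0.21 (adjusted p = 3.04e-08), and Krt15, a basal type I chain, by -2.38 ± 0.28 (adjusted p = 3.11e-06). Krt13, the abundant suprabasal type I chain, changed by -1.16 ± 0.42 (adjusted p = 0.0405), while its partner Krt4 stood at -1.75 ± 0.68 (adjusted p = 0.0532) and Krt5, the basal type II chain, at -0.22 ± 0.22 (adjusted p = 0.477). In KO the estimates for these 7 genes lay between -0.05 and 0.46, with an adjusted p of 0.610 or more.

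**Figure D5:**
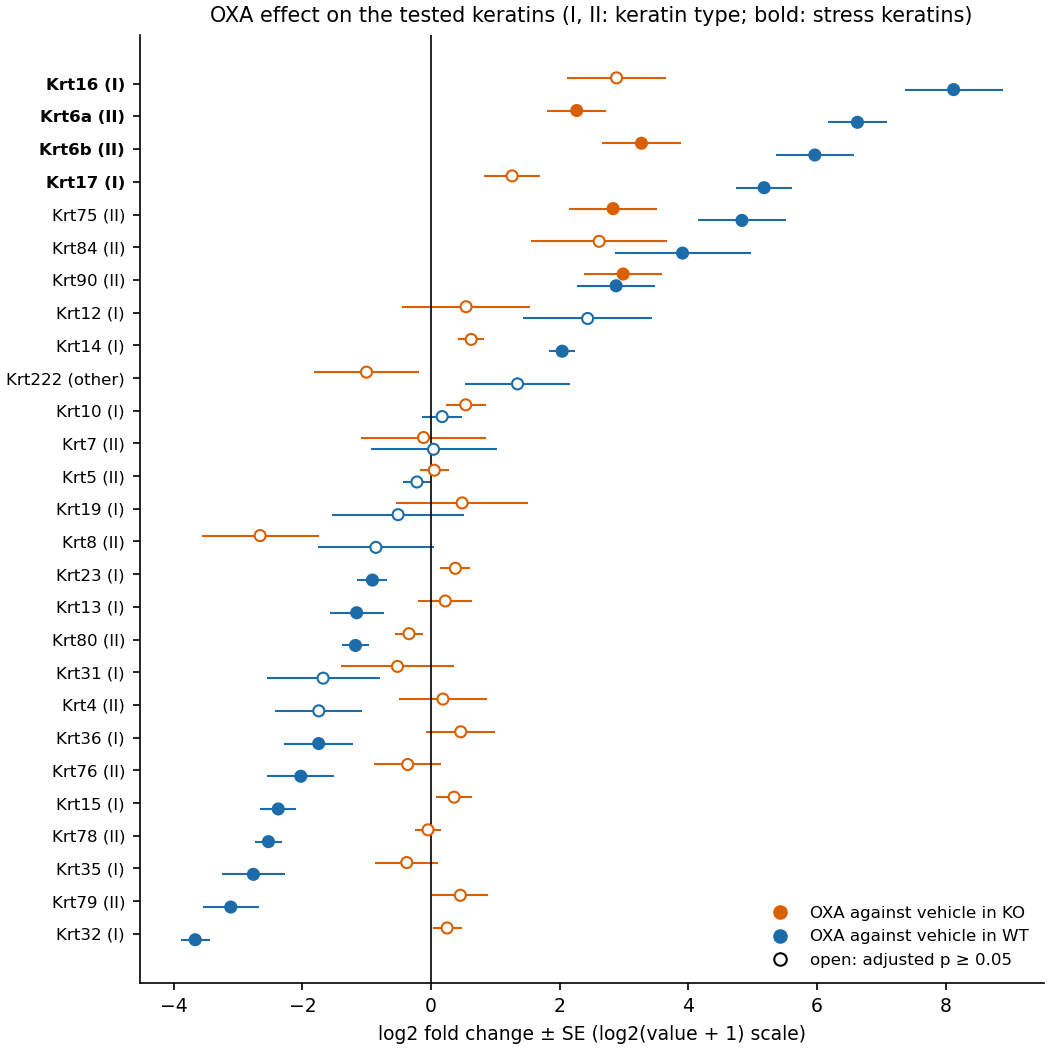
OXA effect on each tested keratin (log2 fold change with its standard error, log2(value + 1) scale), KO and WT, with the stress keratins in bold and the filament type beside the name. In WT the stress keratins lie between 5.18 and 8.12, and 10 other keratins were called lower.

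Genes known to act upstream of stress keratins in skin, or in the same alarm response, were counted from lists. The median log2 fold change in WT was 0.58 for the regulators, 0.59 for keratinocyte activation genes, -0.47 for keratin filament linkers and 1.38 for cell cycle genes, beside 0.0994 over all tested genes. The counts that follow are to be read beside the shares of all tested genes, 1.81% higher and 0.0896% lower in KO and 18% higher and 16% lower in WT. Of 23 tested regulators, limma called 1 higher and 0 lower in KO, and 12 higher and 3 lower in WT. With equal library totals the WT counts were 15 and 1, and with quantile normalization 11 and 2. Unadjusted, 3 of the 23 in KO were higher and 1 was lower at 0.05, and after adjustment edgeR called 0 lower in KO and DESeq2 called 1.

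Nfkb1 and Rela, subunits of NF-κB, rose in WT by 1.20 ± 0.14 (adjusted p = 3.22e-06) and 1.28 ± 0.20 (adjusted p = 6.01e-05), and Stat3, a transducer of IL-6 family cytokines, by 0.81 ± 0.15 (adjusted p = 0.000364). In KO they stood at 0.02 ± 0.14, -0.06 ± 0.20 and 0.09 ± 0.15, and the interaction was negative for all 3 (adjusted p = 0.000519, 0.00258 and 0.0227). Jun, an AP-1 subunit, fell by 1.69 ± 0.23 in WT (adjusted p = 2.11e-05) and stood at -0.29 ± 0.23 in KO.

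Of 22 tested keratinocyte activation genes, 2 rose and 0 fell in KO, and 8 rose and 4 fell in WT. The KO count of higher calls was 0 with equal library totals or quantile normalization and 4 with edgeR or DESeq2, and without adjustment 6 were higher and 2 were lower in KO at 0.05. In WT the counts were 11 higher and 4 lower with equal library totals, and 6 and 3 with quantile normalization. Sprr1b, a cornified envelope precursor, rose by 2.92 ± 0.27 in WT (adjusted p = 1.61e-07) and stood at 0.67 ± 0.27 in KO (adjusted p = 0.255). S100a9, a calprotectin subunit, rose by 2.52 ± 0.44 in WT (adjusted p = 0.000237), and Hbegf, an EGF receptor ligand, by 1.04 ± 0.19 (adjusted p = 0.00028). Defb4, an antimicrobial defensin, fell by 2.47 ± 0.31 in WT (adjusted p = 6.04e-06). The list thus held genes that moved against the stress keratins as well as with them.

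Of 14 tested genes on the list of keratin filament linkers, 2 rose and 6 fell in WT, the higher count being near the share of all genes. The list was broad and also held genes that are not linkers, such as a chaperone and a kinase. Ppl (periplakin) fell by 1.92 ± 0.17 (adjusted p = 6.54e-08), Evpl (envoplakin) by 0.97 ± 0.16 (adjusted p = 0.00013) and Hspb1, a small chaperone, by 1.48 ± 0.23 (adjusted p = 6.66e-05), while Csnk1a1, a kinase, rose by 0.61 ± 0.13 (adjusted p = 0.000969). In KO limma, edgeR and DESeq2 each called 0 in either direction, and without adjustment 1 was higher and 1 was lower. Of 14 cell cycle genes, 10 rose in WT and 0 fell, with the same counts unadjusted, in edgeR and in DESeq2. In KO limma and edgeR called 0 of the 14, DESeq2 called 1 higher, and without adjustment 2 were higher and 1 was lower. Rrm2, a ribonucleotide reductase subunit, rose by 3.62 ± 0.21 in WT (adjusted p = 2.1e-10) and stood at 0.29 ± 0.21 in KO (adjusted p = 0.572).

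Markers of other tissues and cells were read for the same libraries. Their counts too are read beside 1.81% higher and 0.0896% lower over all genes in KO and 18% and 16% in WT. Of 9 tested leukocyte markers 3 rose in KO, where edgeR and DESeq2 each also called 1 lower, and 6 rose in WT. Their summed value was 3387 to 7835 in KO OXA, 1812 to 3318 in KO vehicle, 3627 to 4490 in WT OXA and 2618 to 3434 in WT vehicle, with Itgam at 0 in every library. Their part in the stress keratin values was not tested. Hair and skin appendage markers summed to 61.9 to 109 in KO OXA, 52.6 to 68.9 in KO vehicle, 40.3 to 107 in WT OXA and 42.3 to 63.3 in WT vehicle, and 8 of the 20 listed were at 0 in every library. Of the 5 tested, 1 rose and 2 fell in WT, so the sum joins genes that moved in opposite directions. Of 4 tested cornified skin markers 3 fell in WT, and of 6 tested markers of simple and glandular epithelium 3 fell. Of 7 smooth muscle markers 3 fell in WT, and so did 3 of 8 skeletal muscle markers. Of 7 fibroblast markers limma, edgeR and DESeq2 called 0 in WT, with 1 higher in limma at an unadjusted p under 0.05, but limma called 3 higher after quantile normalization and 2 after scaling to equal library totals. Of the 13 esophageal epithelium markers 4 rose and 3 fell in WT, among them Mal, a membrane protein of lipid rafts, which rose by 3.38 ± 0.34 (adjusted p = 4.13e-07).

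Likeness of profile was measured as the root mean square difference between log2(value + 1) profiles over the 16 libraries, each centred on its own mean. Profiles were not scaled, so a small number means a profile alike in shape and also in size of change. The profile nearest to Krt6b and the one nearest to Krt16 was that of Krt6a, at 0.731 and 0.877. The gene nearest to Krt6a was Sprr2h, a small proline-rich protein of the cornified envelope, at 0.605, followed by Krt6b, Krt17 (0.859) and Krt16. For comparison, the median distance over all tested genes was 2.74 from Krt6a, 2.86 from Krt6b, 3.49 from Krt16 and 2.28 from Krt17. These distances describe the 16 libraries, whose group differences they share, and carry no test.

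Among genes other than the stress keratins, small proline-rich genes filled most of the nearest places. After Sprr2h, the next nearest to Krt6a were Sprr2i (0.906) and Slc6a14, an amino acid transporter (0.921). Nearest to Krt6b were Sprr2i (0.892), Sprr2d (0.920) and Sprr2h (1.04), and nearest to Krt16 were Sprr2h (0.927), Sprr2f (1.08) and Sprr2e (1.14). Sprr2 genes are close copies of each other, and the authors' counting could have split their reads. Krt17 had other neighbours: 5830411N06Rik (0.685), Izumo1r (0.746) and AU020206 (0.782) came before Krt6a, while Krt16 was only at place 340. Krt16 and Krt17 nevertheless kept the same order of libraries within KO OXA and within WT OXA. They differed in the size of the OXA effect in WT (log2 fold change 8.12 for Krt16, 5.18 for Krt17), which adds to this distance.

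Sprr2h was picked because its profile was the nearest to Krt6a over these same libraries. Its likeness to Krt6a and its calls below follow largely from that choice and are description only. Sprr2h was at 266, 406, 104 and 102 in KO OXA and at 59.5, 53.5, 29.7 and 24.6 in KO vehicle. It was at 4062, 3585, 3404 and 3500 in WT OXA and at 12.4, 9.27, 16.4 and 86.9 in WT vehicle. Like Krt6a, it did not overlap between OXA and vehicle in either genotype, and KO OXA replicates 1 and 2 lay above replicates 3 and 4. Its log2 fold change was 2.21 ± 0.52 in KO (adjusted p = 0.0308) and 7.40 ± 0.52 in WT (adjusted p = 3.42e-09), with an interaction of -5.20 ± 0.74 (adjusted p = 0.0001).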

How the data were processed

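CEL-Seq libraries of esophagus RNA, 4 in each of 4 groups, were run on a NextSeq550 (per the labels' protocols). Per the submitters' processing notes, FastQC 0.11.5, Trim Galore, cutadapt 1.10, TopHat2 2.1.0, Bowtie2 2.2.6, HTSeq 0.6.1, DESeq2 1.28.0 and the GRCm38 build were used. Which annotation release was counted, and how molecular identifiers were treated, is not given in the sources used here. Values as deposited by the authors are a normalized signal: reads per gene over a size factor for each library. To within 0.1 read, 100% of them were whole reads once rescaled, and depth was taken from these recovered reads. Intervals on shares cover counting error only.

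The main test was limma 3.58.1 (R 4.3.3), two-sided, on log2(value + 1), with 4 group means over all 16 libraries, eBayes with a trend and Benjamini-Hochberg adjustment over the 16748 genes that reached 5 in 4 or more libraries. The threshold was 0.05. Fold changes on this scale understate the change of low genes. Shares and ratios were compared by exact permutation (SciPy 1.17.1). Transcripts of GENCODE M21 gave sequences and shared windows.

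The 4 genes and the other 12 gene lists were chosen with earlier results of these data known. Genes were named by rule: the 4 stress keratins, Il13ra1, up to 4 genes per list and up to 6 other keratins with the smallest p for OXA against vehicle in WT, and the 3 nearest profiles to each stress keratin. Krt4, Krt5, Krt13, Krt84, Krt90 and Gm49428 were named outside this rule, once their values had been seen. The 1 regulator called in KO is not reported here by name.

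The alternatives tried were no filter or a filter of 20, pseudocounts of 0.5 and 5, quantile normalization or equal library totals, no trend, a fit restricted to the groups compared, edgeR 4.0.16 and DESeq2 1.42.0 on recovered reads, and each library left out. On the recovered reads edgeR called 5510 genes for OXA against vehicle in WT and 387 in KO. Thinning to 5.61 M reads was added after seeing the data. In simulated WT libraries (15839 genes), 45 of 100 genes changed 2-fold, 90 of 100 changed 4-fold and 7 of 15639 unchanged genes were called.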

Additional observations from a re-analysis of the deposited data

Results flagged for a closer look

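In limma, adjusted over all tested genes, the OXA effect differed between the genotypes for all 4 stress keratins. The interaction, KO effect minus WT effect, was -4.36 for Krt6a, -2.70 for Krt6b, -5.24 for Krt16 and -3.92 for Krt17 on the log2 scale. The Krt6b call was lost with edgeR and with DESeq2, and 7.67% of all tested genes were called in that direction. In KO vehicle, replicate 1 stood far from the other 3 libraries for Krt6a, Krt16 and the stress keratin share, but not for Krt6b and Krt17. Its Krt6a value was 2428, against 920 to 1045 in the other 3. Its Krt16 value was 124.8, against 36.1 to 43.4. Its stress keratin share of keratin reads was 0.240%, the highest of the group. Each stress keratin and the share were screened in each group. For normally distributed values chance sets apart about 1 in 20 groups in this way, and for skewed values the rate is not known. These 3 values come from the same library.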

How the results depend on the processing

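All 4 stress keratins kept their calls in WT and in KO against WT under OXA under every alternative run, each library left out included. In KO, Krt16 passed with a pseudocount of 5 (2.79), with only the groups compared (2.88), with edgeR (3.21) and with DESeq2 (3.23), and Krt17 with DESeq2 (1.47), so that DESeq2 called 4. With 1 library left out, the KO effect ranged from 1.94 to 2.63 for Krt6a, from 2.58 to 3.86 for Krt6b (4.07 with edgeR), from 2.35 to 3.55 for Krt16 and from 0.94 to 1.77 for Krt17, and 1 to 4 of the genes were called. Krt16 then passed without WT vehicle replicate 2, 3 or 4 or KO OXA replicate 3 or 4. The Krt6b interaction lost its call without a filter (-2.70), without the trend (-2.70), with edgeR (-1.94) and with DESeq2 (-1.93), and ranged from -3.39 to -2.11 with 1 library left out. In KO against WT under vehicle, where no gene passed, the sign turned for Krt16 with edgeR (-0.24) and DESeq2 (-0.29) and for Krt17 with thinned reads (0.0899). With 1 library left out these ranged from -0.21 to 1.03 for Krt16 and from -0.29 to 0.0862 for Krt17. The share of keratin reads in KO vehicle minus WT vehicle ranged from -0.0513 to 0.0245 percentage points, above 0 without WT vehicle replicate 4, and that in KO OXA minus KO vehicle from 0.418 (without KO OXA replicate 2) to 1.40. The causes of these moves were not tested. Equal library totals moved the median of all genes by 0.31 in WT, -0.12 in KO, -0.42 in the interaction and -0.39 in KO against WT under OXA, and the stress keratins moved by nearly the same amounts. Genes called in KO numbered 318, but 722 with DESeq2, 199 with only the groups compared, 1032 without KO OXA replicate 4, 193 and 182 without KO OXA replicates 1 and 2, and 204 and 195 without KO vehicle replicates 1 and 3. In KO against WT under vehicle they numbered 10, but 46 with DESeq2, 5 without a filter or with equal library totals, 3 without the trend and 3 to 12 with 1 library left out. No paired analysis was made because the labels state no pairing between groups. Replicate numbers here follow the order in which the samples of a group were listed. Depth limits Krt17 and Krt16 in vehicle tissue, where single values rest on as few as 7 reads.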
